A study of Mus musculus with 7 samples.

Results

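Zinc buffering and zinc export were followed in mouse choroid plexus through 5 genes, the metallothionein genes Mt1, Mt2 and Mt3, the transcription factor gene Mtf1 and the zinc exporter gene Slc30a1. They were chosen by name, and all 5 were found among the 40873 genes analysed. The RNA came from choroid plexus of the lateral ventricles, pooled within each library, of wild-type (WT) embryos of the outbred CD-1 stock. Treatment preceded collection by 24 h, and embryos were at E15.5, the day of embryonic development. The 3 RBC libraries came from embryos given red blood cells, which had been taken from a donor litter at E14.5, washed in saline and resuspended in it. The 4 saline libraries came from embryos given saline. All 7 libraries carry batch label 1. The sources used here do not say how many embryos or litters entered a pool, so the p-values speak of the spread between pools only. Library totals ran from 4393860 to 8386928 counts.

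Metallothioneins are small cysteine-rich proteins that bind zinc and copper inside the cell. Zinc activates the zinc finger factor MTF-1, the product of Mtf1, which binds metal response elements in the promoters of Mt1, Mt2 and Slc30a1. Slc30a1 encodes ZnT1, which carries zinc out of the cell across the plasma membrane. Glucocorticoids and inflammatory cytokines also induce Mt1 and Mt2, whereas Mt3 is a brain-enriched form that responds little to metals. The choroid plexus lies between blood and cerebrospinal fluid and takes part in the metal balance of the brain.

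The promoters of the 3 metallothionein genes and of Slc30a1 are shown because MTF-1 is known to act at such sites. Each window holds 250 bases before and 50 bases after the gene start in RefSeq, on GRCm38.p6 and on the plus strand. The windows are chr8:94178839-94179138 for Mt1, chr8:94172368-94172667 for Mt2, chr8:94152357-94152656 for Mt3 and chr1:191906531-191906830 for Slc30a1. The Mt1 window is placed on the start of its 3-exon transcript model, 94905717 on GRCm39. That lies inside the deposited Mt1 span, which begins at 94905214, and the motifs at that earlier start were not counted. The first exon of the 3-exon model has 250 bases. The window ends 50 bases into it, and letters past that end were not searched. Capitals mark the metal response element core, searched as TGCACNC or TGCGCNC on both strands.
Mt1: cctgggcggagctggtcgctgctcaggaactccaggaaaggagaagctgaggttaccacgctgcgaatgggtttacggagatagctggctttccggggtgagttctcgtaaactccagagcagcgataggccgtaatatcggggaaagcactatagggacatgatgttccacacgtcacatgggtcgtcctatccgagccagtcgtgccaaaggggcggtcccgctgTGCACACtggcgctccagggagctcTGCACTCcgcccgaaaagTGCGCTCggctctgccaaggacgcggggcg
Mt2: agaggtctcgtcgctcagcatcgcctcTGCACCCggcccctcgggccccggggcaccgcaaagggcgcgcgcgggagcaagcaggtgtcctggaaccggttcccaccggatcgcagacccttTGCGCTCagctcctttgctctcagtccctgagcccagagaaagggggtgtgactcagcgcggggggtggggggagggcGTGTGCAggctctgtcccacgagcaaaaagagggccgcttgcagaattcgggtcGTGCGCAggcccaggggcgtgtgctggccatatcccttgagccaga
Mt3: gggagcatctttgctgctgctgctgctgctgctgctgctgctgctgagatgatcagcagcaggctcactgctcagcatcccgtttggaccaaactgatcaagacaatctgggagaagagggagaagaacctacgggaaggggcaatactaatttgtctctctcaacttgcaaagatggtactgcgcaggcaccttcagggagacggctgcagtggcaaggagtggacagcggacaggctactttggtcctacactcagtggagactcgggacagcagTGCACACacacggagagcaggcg
Slc30a1: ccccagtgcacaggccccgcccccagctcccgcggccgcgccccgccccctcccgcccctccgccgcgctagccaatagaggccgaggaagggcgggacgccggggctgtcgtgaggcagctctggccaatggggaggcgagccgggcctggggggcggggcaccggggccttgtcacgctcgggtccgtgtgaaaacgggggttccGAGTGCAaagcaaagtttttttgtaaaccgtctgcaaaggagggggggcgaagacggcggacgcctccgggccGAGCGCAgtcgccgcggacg

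The core occurred at 4 positions in the Mt2 window, 3 in the Mt1 window, 2 in the Slc30a1 window and 1 in the Mt3 window. The Mtf1 window held 0. Of 32851 promoter windows of the same length, 25.7% held at least 1 core, 7.11% at least 2, 1.97% at least 3 and 0.517% at least 4. The antioxidant response element core, searched as TGACNNNGC on both strands, occurred once in each of the Mt2 and Slc30a1 windows and in 0 places in those of Mt1, Mt3 and Mtf1. It was held by 12.4% of all windows. No match of one motif shared its position with a match of the other in these windows, and a match describes letters, not a bound site. The counts for Mt1, of both motifs, hold for the window shown and do not describe its whole promoter.

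All 5 genes were lower in RBC libraries than in saline libraries, by log2 fold changes between -0.14 and -0.66, and 0 of 5 passed the edgeR test over all genes (adjusted p under 0.05). Across the 14869 genes tested, 0.0605% passed, 0.0202% as lower. The median log2 fold change of the 5 genes was -0.32, beside -0.000342 for all genes tested, of which 50.1% were lower. Every RBC library lay below every saline library for Mt1, Mt2, Mtf1 and Slc30a1, 4 of 5 genes, where 4.63% of all genes tested did so and 9.59% were apart in either direction. At an unadjusted p under 0.05 there were 2 of 5 genes, Mt3 and Mtf1, both lower, against 9.54% of all genes in either direction and 4.32% lower. DESeq2 called 1 of 5, Mtf1, against 1.39% of genes with an adjusted p in that test (0.289% lower). Limma-voom called 0 of 5, against 0.0605% of all genes, and 0 of 5 with sample weights, against 0.323%. In these pools a lower level may mean fewer cells that carry the RNA or less RNA per cell, and the 2 cannot be told apart.

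**Figure D1:**
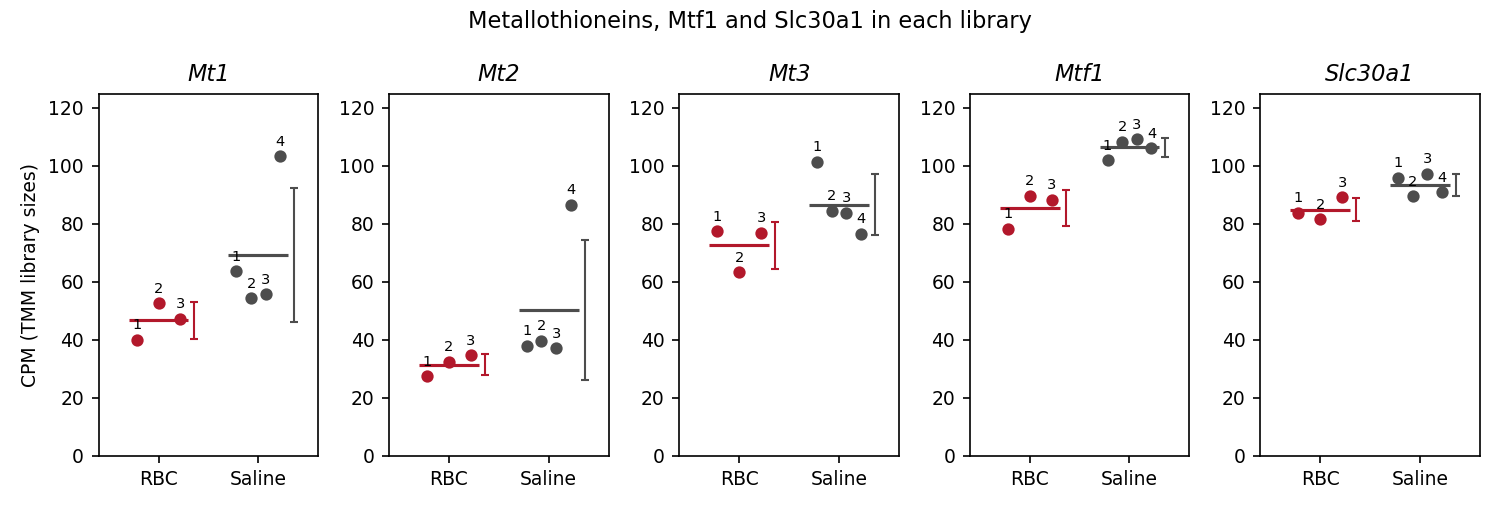
Expression of Mt1, Mt2, Mt3, Mtf1 and Slc30a1 in CPM (counts scaled to library size, vertical axis) in each RBC library (red) and each saline library (grey), with replicate numbers beside the points. Horizontal lines are group means and bars 1 SD (n = 3 RBC and n = 4 saline). Saline 4 stands above all other libraries for Mt1 (103 CPM) and Mt2 (86.6 CPM) but has the lowest Mt3 value among the saline libraries (76.7 CPM).

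Mtf1 had the smallest unadjusted p of the 5 genes. It had 78.4, 89.7 and 88.4 CPM in RBC 1, 2 and 3, against 102, 108, 109 and 106 CPM in saline 1, 2, 3 and 4. Both groups were tight and did not overlap. The means were 85.5 ± 6.20 CPM (SD, n = 3) in RBC libraries and 106.4 ± 3.23 CPM (SD, n = 4) in saline libraries. The ratio was 0.803, or -0.32 ± 0.07 on the log2 scale (SE, edgeR adjusted p = 0.137). DESeq2 gave -0.31 ± 0.09 with an adjusted p of 0.0408, and the adjusted p ran from 0.0408 to 0.324 over 18 alternative settings, with an unadjusted p under 0.05 in all 18. On GRCm39 Mtf1 spans 124696342 to 124743593 of chromosome 4 on the plus strand. It overlaps 1110065P20Rik on the minus strand, which had 1293 counts over the 7 libraries. 1110065P20Rik averaged 22.8 CPM in RBC libraries and 32.6 CPM in saline libraries, with no overlap between the groups (log2 fold change -0.51 ± 0.12, edgeR adjusted p = 0.136), and its part in the Mtf1 values was not tested. The libraries were directional, but the sources used here do not give the strand setting of the counting.

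Slc30a1 differed least. It had 83.9, 81.5 and 89.3 CPM in RBC 1, 2 and 3, against 95.9, 89.5, 97.4 and 91.0 CPM in saline 1, 2, 3 and 4. The groups did not overlap, but RBC 3 and saline 2 were nearly level. The log2 fold change was -0.14 ± 0.07 (SE, edgeR adjusted p = 0.587), with means of 84.9 ± 3.97 CPM in RBC libraries and 93.5 ± 3.77 CPM in saline libraries (SD, n = 3 and n = 4). The gene spans 191638810 to 191645359 of chromosome 1 (GRCm39, plus strand) and overlaps 1700034H15Rik on the minus strand, which had 256 counts in all and a log2 fold change of -0.10 ± 0.20.

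Mt1 and Mt2, the metal-inducible metallothionein genes, had the largest differences and the largest errors. Mt1 had 40.1, 52.6 and 47.3 CPM in RBC 1, 2 and 3, against 63.7, 54.4, 55.7 and 103 CPM in saline 1, 2, 3 and 4. Mt2 had 27.4, 32.4 and 34.6 CPM in RBC 1, 2 and 3, against 38.0, 39.6, 37.1 and 86.6 CPM in saline 1, 2, 3 and 4. For both genes saline 4 was far above every other library, and the remaining saline libraries lay just above the RBC libraries. Over all 7 libraries the log2 fold change was -0.56 ± 0.25 for Mt1 (SE, edgeR adjusted p = 0.553) and -0.66 ± 0.35 for Mt2 (SE, edgeR adjusted p = 0.654). The counts behind these values were 261 to 348 for Mt1 and 191 to 218 for Mt2 in RBC libraries, and 339 to 466 for Mt1 and 247 to 374 for Mt2 in saline libraries.

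Saline 4 held 1.78 times the mean Mt1 level of the other 3 saline libraries and 2.27 times their mean Mt2 level. Without saline 4, the log2 fold change was -0.31 ± 0.12 for Mt1 (SE, edgeR adjusted p = 0.404) and -0.28 ± 0.11 for Mt2 (SE, edgeR adjusted p = 0.435). The size of the difference therefore came down by over 1.5 times for both genes, and the standard errors were smaller as well. Neither gene passed the edgeR test with or without that library. Against saline 1 to 3 alone, every RBC library lay below every saline library for all 5 genes, where 7.55% of all genes tested did so. For Mt1, Mt2, Mtf1 and Slc30a1 this was fixed beforehand, since they were already apart with saline 4 included. Mt3 overlapped only through saline 4. That library was left out after the data were seen, so the count of 5 is no separate observation.

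Saline 4 also carried RNA of hepatocyte genes. The 10 hepatocyte markers summed to 2.81 to 11.1 CPM in RBC libraries, against 1536 CPM in saline 4 and 2.57 to 20.03 CPM in the other 3 saline libraries. Afp, which encodes alpha-fetoprotein, had 6, 6 and 45 counts in RBC libraries and 0, 1, 119 and 3470 counts in saline libraries. Alb, which encodes albumin, had 1, 3 and 2 counts in RBC libraries and 7, 8, 7 and 2063 in saline libraries. Ahsg and Ambp were at 0 counts in the 3 RBC libraries and in saline 1 to 3, against 184 counts of Ahsg and 297 counts of Ambp in saline 4. Liver is a tissue known for high Mt1 and Mt2 expression, and the part of these transcripts in the Mt1 and Mt2 levels of saline 4 was not tested.

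**Figure D2:**
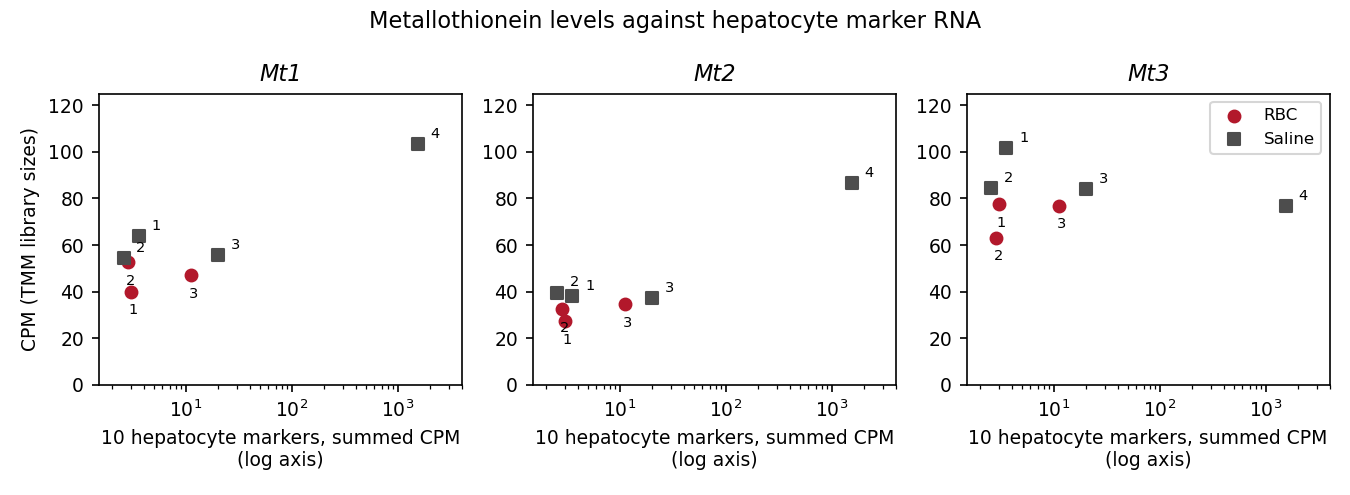
Levels of Mt1, Mt2 and Mt3 (CPM, vertical axis) against the summed CPM of 10 hepatocyte markers (horizontal log axis) in each RBC library (red circles) and saline library (grey squares), with replicate numbers. Saline 4, at 1536 CPM of hepatocyte markers, is the highest library for Mt1 and Mt2 and not for Mt3, and the other 6 libraries lie between 2.57 and 20.03 CPM of hepatocyte markers.

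Mt3, the brain-enriched metallothionein, did not share the high value of saline 4. It had 77.5, 63.2 and 77.0 CPM in RBC 1, 2 and 3, against 102, 84.6, 83.9 and 76.7 CPM in saline 1, 2, 3 and 4. The groups overlapped through saline 4, which lay below RBC 1 and RBC 3. The log2 fold change was -0.26 ± 0.11 (SE, edgeR adjusted p = 0.442), with means of 72.6 ± 8.08 CPM in RBC libraries and 86.7 ± 10.5 CPM in saline libraries (SD, n = 3 and n = 4). It was -0.30 ± 0.11 without saline 4 and -0.17 ± 0.11 without RBC 2, the library with the lowest Mt3 level. RBC 2 also had the least neuronal RNA, with 7 neuron markers at 15.9 CPM summed, against 57.0 and 65.2 CPM in RBC 1 and 3 and 45.8 to 104 CPM in saline libraries. It was the lowest library as well for summed markers of radial glia and astrocytes (220 CPM, against 244 to 341 CPM elsewhere). The same held for mesenchyme (1469 against 1727 to 2831 CPM) and endothelium (742.5 against 826 to 1138 CPM). All 7 neuron markers were tested and all were lower in RBC libraries, with 0 past the threshold. The part of these cell types in the Mt3 values was not tested.

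The fourth gene of the cluster, Mt4, which is known from stratified squamous epithelium, was at 0 counts in the 3 RBC libraries and at 0, 0, 0 and 1 counts in saline 1, 2, 3 and 4. It fell below the count filter and was not tested. In the libraries at 0 counts, a count of 3 corresponds to between 0.358 and 0.547 CPM of total counts. That is about the upper limit that a count of 0 allows at 95% confidence, for counting error only.

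**Figure D3:**
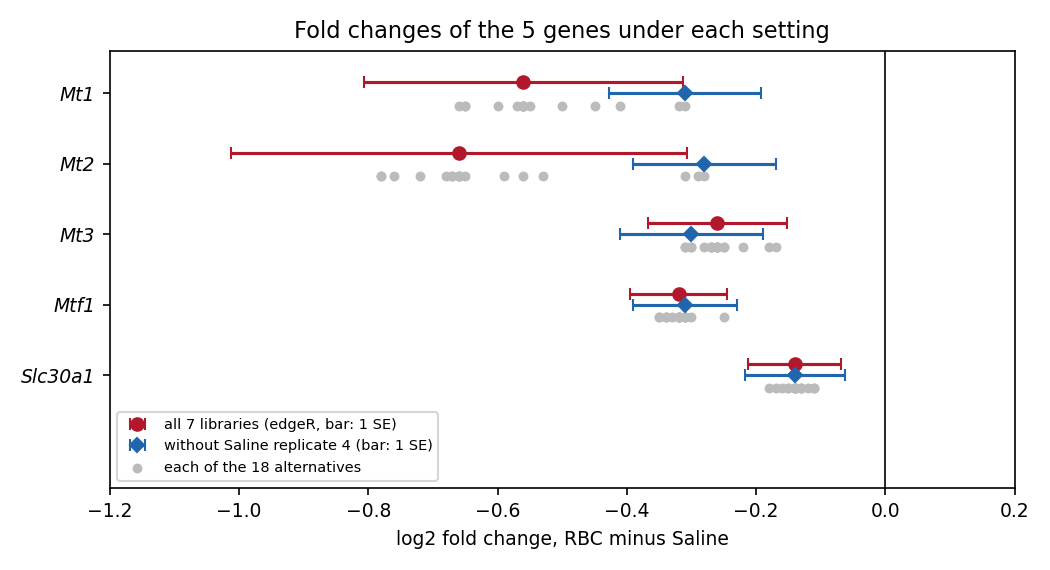
Log2 fold changes (horizontal axis, RBC minus saline) of Mt1, Mt2, Mt3, Mtf1 and Slc30a1 in the edgeR fit of all 7 libraries (red, bar 1 SE), in the fit without saline 4 (blue, bar 1 SE) and in each of 18 alternative settings (grey). All values lie below 0, and leaving out saline 4 brings Mt1 to -0.31 and Mt2 to -0.28, close to Mt3 (-0.30) and Mtf1 (-0.31).

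Levels were compared between genes per kilobase of exon. In RBC libraries Mt3 led with 135 ± 15.02 CPM per kb (SD, n = 3), ahead of Mt1 with 86.1 ± 11.7, Mt2 with 56.6 ± 6.64, Slc30a1 with 15.8 ± 0.740 and Mtf1 with 11.2 ± 0.812 CPM per kb. No neighbouring pair in that order overlapped in RBC libraries. In saline libraries the same order held for the means, with 161 ± 19.6 CPM per kb for Mt3, 128 ± 42.5 for Mt1, 90.5 ± 43.6 for Mt2, 17.4 ± 0.703 for Slc30a1 and 13.9 ± 0.424 for Mtf1 (SD, n = 4). There the 3 metallothionein genes overlapped, since saline 4 had 142.5 CPM per kb of Mt3, 190.6 of Mt1 and 155.8 of Mt2. Saline 1 to 3 kept the 3 genes apart. These values use 542 bases for Mt1, the length of its 3-exon transcript model. All Mt1 reads were divided by it, including any that fell outside that model, which would raise the Mt1 value. The deposited gene length of 1258 bases includes a second model with a longer first exon and a retained intron. With that length Mt1 had 37.1 ± 5.02 CPM per kb in RBC libraries and 55.1 ± 18.3 CPM per kb in saline libraries, below Mt2 in both groups. The order of Mt1 and Mt2 therefore depended on the length used.

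The proportion of Mt1 to Mt2 reads differed between the groups by less than its spread. The ratio of Mt1 to Mt2 counts was 1.46, 1.63 and 1.37 in RBC 1, 2 and 3, against 1.68, 1.37, 1.503 and 1.19 in saline 1, 2, 3 and 4. Saline 4 had the lowest ratio, and the groups overlapped. The mean log2 ratio was 0.57 ± 0.13 in RBC libraries and 0.51 ± 0.21 in saline libraries (SD), a difference of 0.06 (two-sided exact permutation test, p = 0.80, where 0.0286 is the smallest p possible). The longest run of bases shared by any transcripts of the pair was 20 in GENCODE M21, and 27 for Mt1 and Mt3. The sources used here give neither the read length nor the handling of reads with several matches.

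The metallothionein cluster spans 94863832 to 94906955 of chromosome 8 on GRCm39, with Mt4, Mt3, Mt2 and Mt1 in that order on the plus strand. Mt3 lies at 94879235 to 94880776, Mt2 at 94899246 to 94900195 and Mt1 at 94905214 to 94906955. Of 10 genes within 100 kb of the cluster 6 passed the count filter, and 0 of them passed the edgeR test (0.0605% of all genes tested did). Bbs2, which encodes a subunit of the ciliary BBSome, had a log2 fold change of -0.22 ± 0.08 (edgeR adjusted p = 0.329), with no overlap between the groups. Ogfod1, a ribosomal protein hydroxylase gene, had 0.04 ± 0.16 and the nuclear pore gene Nup93 had 0.01 ± 0.08. The flanking genes were thus not all lower, and Ogfod1 and Nup93 lay within their errors of 0.

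The genes most like Mt1 and Mt2 in pattern over the 7 libraries were taken by Pearson's r of log2 CPM among 11210 genes with a mean count of at least 50. They were Mrps6 (r = 0.980), Gatd3a (0.978), Sec14l2 (0.966), Slc25a15 (0.965) and Glud1 (0.960). Slc25a15 encodes the mitochondrial ornithine carrier of the urea cycle and Glud1 glutamate dehydrogenase. For each of the 5 genes saline 4 was the highest library, as with Glud1, which had 129, 139 and 136 CPM in RBC libraries and 140, 136, 142 and 227 CPM in saline libraries. Without saline 4, a choice made after seeing the data, the nearest were Galt (r = 0.989), Ssh2 (0.984), Scube3 (0.982), Faxc (0.979) and Cxxc5 (0.975) over 6 libraries, and the 5 genes named first ranked between 63 and 419. For Mtf1 the nearest were Arsg (0.977), Tgfa (0.967) and Fn3k (0.964), for Slc30a1 Tll1 (0.987), Ate1 (0.977) and Ddx42 (0.972), and for Mt3 Meis2 (0.976), Epn2 (0.973) and Mcf2l (0.973). Tgfa, which encodes transforming growth factor alpha, was among the 9 genes past the edgeR threshold, with 15.2, 19.1 and 19.7 CPM in RBC libraries and 33.1, 29.8, 35.7 and 33.1 CPM in saline libraries (log2 fold change -0.88, edgeR adjusted p = 0.0280). All these points share the libraries and their scaling. The genes were picked as the highest r among so many over 7 libraries, and no chance level was computed. The difference between the groups is part of each r.

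Other zinc transporter genes were split in direction. Of the 9 remaining genes of the SLC30 family of metal transporters 6 were tested, 4 of them higher and 2 lower in RBC libraries, and 0 passed the edgeR test. Their median log2 fold change was 0.01, and its sign turned with the setting (-0.03 without saline 4). The 1 gene with an unadjusted p under 0.05 was Slc30a9, the gene of a mitochondrial zinc transporter, with 104.6 ± 2.19 CPM in RBC libraries and 116 ± 4.95 CPM in saline libraries (log2 fold change -0.15 ± 0.07, edgeR adjusted p = 0.484). Slc30a3 and Slc30a8 were at 0 counts in every library.

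The SLC39 family brings zinc into the cytosol. Of its 14 genes 12 were tested, 9 higher and 3 lower in RBC libraries with a median of 0.06 (0.02 without RBC 2), and 0 passed. Slc39a1, a zinc importer of the plasma membrane, had 114, 95.1 and 94.7 CPM in RBC libraries and 85.0, 87.0, 86.8 and 84.5 CPM in saline libraries. Every RBC library was higher, by a log2 fold change of 0.24 ± 0.08 (edgeR adjusted p = 0.289). Slc39a12, a zinc importer known from brain, had 113, 94.2 and 99.4 CPM in RBC libraries and 130, 115, 145 and 117 CPM in saline libraries. Every RBC library was lower, by -0.31 ± 0.10 (edgeR adjusted p = 0.248).

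**Figure D4:**
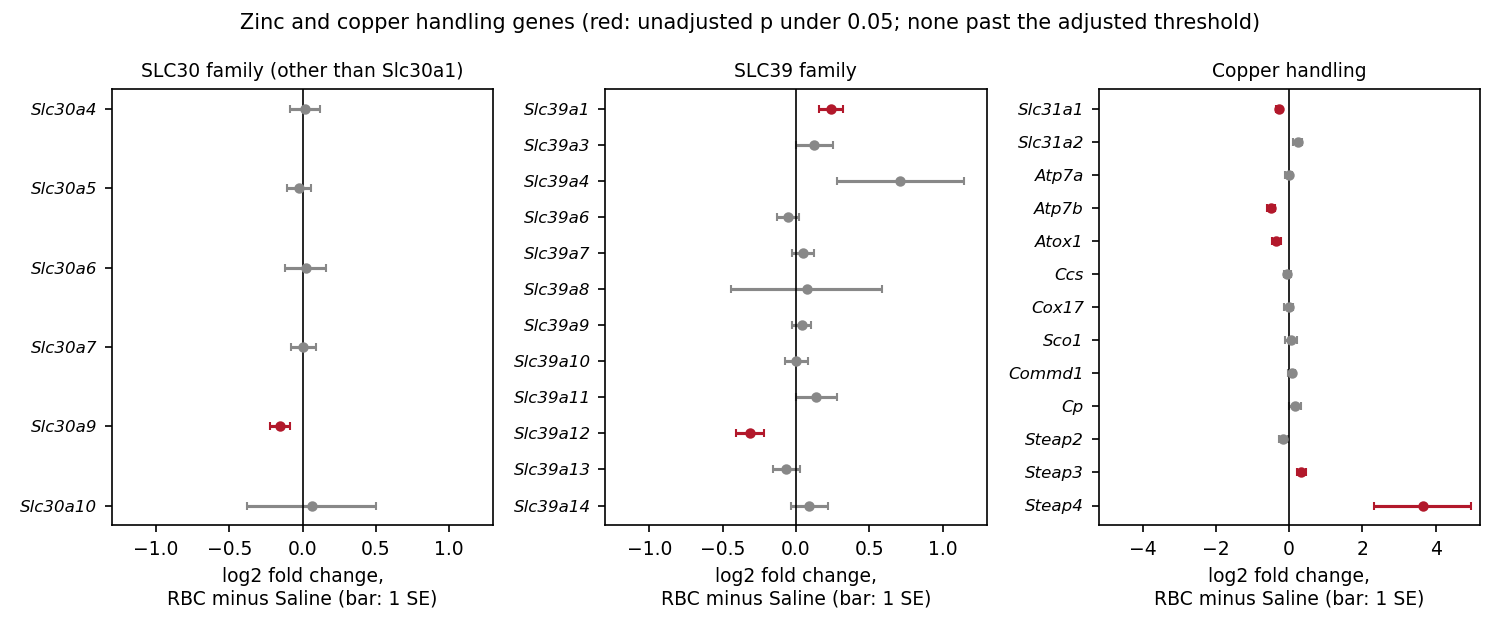
Log2 fold changes (horizontal axis, RBC minus saline, bar 1 SE) of the tested genes of the SLC30 family other than Slc30a1, the SLC39 family and copper handling, with genes at an unadjusted p under 0.05 in red. The copper panel has a wider axis because of Steap4 (3.65 ± 1.32), which had 218 CPM in RBC 2 and 19.3 and 11.4 CPM in RBC 1 and 3, and is named here after its values were seen. No gene shown passed the adjusted threshold in edgeR.

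Copper handling genes were split, with 6 higher and 7 lower of 13 tested (median -0.01, or 0.05 without RBC 2) and 0 past the edgeR threshold. Slc31a1, the high-affinity copper importer, had 624, 610 and 553 CPM in RBC libraries and 714, 684, 782 and 719 CPM in saline libraries. The groups did not overlap, and the log2 fold change was -0.28 ± 0.07 (edgeR adjusted p = 0.139, DESeq2 adjusted p = 0.00894). Atp7b, a copper-exporting ATPase gene, had 31.8, 27.5 and 25.2 CPM in RBC libraries and 41.4, 40.0, 39.0 and 39.1 CPM in saline libraries (log2 fold change -0.50 ± 0.10, edgeR adjusted p = 0.104, DESeq2 adjusted p = 0.0292). Atox1, the chaperone that hands copper to such ATPases, had -0.35 ± 0.12 and the metalloreductase gene Steap3 0.33 ± 0.12 (edgeR adjusted p = 0.291 and 0.343).

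Further genes reported as MTF-1 regulated in mouse gave 4 higher and 1 lower of 5 tested (median 0.09, or 0.04 without saline 1), with 0 past the edgeR threshold. Slc39a10 counts among the higher at 0.0035 ± 0.08. The list is not sorted by whether MTF-1 raises or lowers a gene, so its median does not measure MTF-1 activity. The 1 with an unadjusted p under 0.05 was Gclc. This gene, which encodes the catalytic subunit of glutathione synthesis, had 58.1, 62.6 and 39.3 CPM in RBC libraries and 31.3, 35.6, 34.7 and 30.8 CPM in saline libraries. Every RBC library was higher, by a log2 fold change of 0.69 ± 0.14 (edgeR adjusted p = 0.126, DESeq2 adjusted p = 0.00652).

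Genes that respond to other inducers of metallothioneins were set beside them. Of 11 genes responsive to heme or Nrf2, 10 were higher and 1 lower in RBC libraries (median 0.51), with 0 past the edgeR threshold and 9 called by DESeq2, which called 1.39% of all genes. Across all genes tested 50.1% were lower. The 1 lower gene of the list was Nqo1, at -0.24 ± 0.10 (edgeR adjusted p = 0.487). Hmox1 had the largest rise, at 2.72 ± 0.45 (edgeR adjusted p = 0.138). For both the groups did not overlap, and both are named here after their values were seen. Txnrd1, thioredoxin reductase, had 0.41 ± 0.10, the heme transporter gene Slc48a1 0.41 ± 0.10 and the ferritin gene Fth1 0.51 ± 0.09 (edgeR adjusted p = 0.137, 0.137 and 0.0809). Gclc is in this list as well. Of 8 tested genes responsive to IL-6 and STAT3, 8 were higher, with a median of 0.97, or 0.54 without RBC 2. Of these, 0 passed the edgeR threshold and 3 were called by DESeq2, with Stat3 itself at 0.70 ± 0.14, the feedback inhibitor gene Socs3 at 1.37 ± 0.42 and the receptor genes Osmr and Il6st at 0.71 ± 0.17 and 0.30 ± 0.08 (edgeR adjusted p = 0.104, 0.330, 0.142 and 0.196). As a mean over the 8 genes of log2 CPM relative to the saline mean, this list stood at 0.975, 2.47 and 0.244 in RBC 1, 2 and 3. In saline 1, 2, 3 and 4 it stood at -0.07, -0.29, -0.328 and 0.687, so saline 4 lay above RBC 3. Among its members below the count filter, Bcl3 and Saa3 had higher mean CPM in RBC libraries and Fgg and Lrg1 lower. RBC 2 led this list and also held the most neutrophil marker RNA, at 69.9 CPM. RBC 1 and 3 had 4.03 and 7.30 CPM of it and saline libraries 2.25 to 16.2 CPM, and its part in the list was not tested. Of 12 glucocorticoid responsive genes 5 were higher and 7 lower (median -0.02, or 0.02 without saline 3), with 0 past the edgeR threshold, the clock gene Per1 at -0.28 ± 0.11 and the transcription factor gene Cebpd at 1.98 ± 0.66 (edgeR adjusted p = 0.396 and 0.379). DESeq2 called 1 of the 12, Cebpd (DESeq2 adjusted p = 0.0159), which had 9.54, 31.0 and 4.35 CPM in RBC 1, 2 and 3, against 2.89 to 4.73 CPM in saline libraries, so that RBC 2 was far above the rest.

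Markers of the labelled tissue were abundant in all libraries. The 10 markers of choroid plexus epithelium summed to 18940 to 20340 CPM in RBC libraries and 19140 to 24070 CPM in saline libraries, saline 4 being the highest. Ttr, the marker with the highest level, had 14880 CPM in saline 4, against 11800, 11490 and 10050 CPM in saline 1, 2 and 3. It had 10130, 11800 and 12010 CPM in RBC 1, 2 and 3. All 10 markers were lower in RBC libraries, with a median log2 fold change of -0.08. The 10 macrophage markers summed to 366 to 515 CPM in RBC libraries and 233 to 304.5 CPM in saline libraries. All 10 were higher in RBC libraries, with a median log2 fold change of 0.81. Of these, 1 passed the edgeR test, against 0.0605% of all genes tested. The part of a changed cell makeup in the metallothionein, Mtf1 and Slc30a1 values was not tested.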

How the data were processed

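The authors deposited unnormalized counts of reads for each gene and library, beside exon positions and gene lengths. GRCm39 is the build named by the submitters' processing notes, which also list featureCounts (2.0.6), STAR (2.6.1b) and cutadapt (2.5). Per the labels, libraries were directional and poly(A) enriched. Of 40879 genes listed, 6 have lines broken in the table (not Mt1, Mt2, Mt3, Mtf1 or Slc30a1) and were left out. The 6 continuation lines name no gene and hold 0.107% of all counts.

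Counts were tested with edgeR 4.0.16 under R 4.3.3 (robust quasi-likelihood F test, two-sided, TMM scaling, genes kept by filterByExpr), with Benjamini-Hochberg adjustment over all 14869 genes. Standard errors derive from the F statistic. CPM of single genes use TMM library sizes, and summed marker CPM use total counts. The scripts were tested on simulated data. The 5 genes, the lists, the tests and the alternatives were chosen with earlier results of these data known. Genes named from a list were those past the threshold, then those with an unadjusted p under 0.05, up to 4. For likeness in pattern, 5 genes were taken for Mt1 and Mt2 together and 3 for each other gene. Members of lists below the count filter (3 of the SLC30, 2 of the SLC39, 1 of the copper and 4 of the IL-6 list) were not tested. Alternatives were DESeq2 1.42.0, limma-voom (limma 3.58.1) with and without sample weights, other scalings and count filters, a fit without robust estimation, a block by replicate number and libraries left out. Promoter sequences are from RefSeq (GRCm38.p6), matched by symbol for all 5 genes. Figures were drawn with matplotlib 3.10.9.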

Additional observations from a re-analysis of the deposited data

Results flagged for a closer look

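In 3 of 49 saline values examined, 1 saline library stood apart from the other 3, with a gap to its nearest neighbour that exceeded Dixon's 95% critical share of the range of the 4. Chance flags about 1 group in 20. Glud1 was examined because its pattern is like that of Mt1 and Mt2, which saline 4 sets, so its value is no separate observation. The library was saline 4 each time, for Mt2 (0.949 of the range), for Glud1 (0.932) and for the summed hepatocyte markers (0.989). Mt1 in saline 4 lay just under that limit, at 0.81. The part of the hepatocyte RNA in the levels of Mt2 and Glud1 was not tested.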

How the results depend on the processing

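All 5 genes stayed lower in RBC libraries in each of 18 alternatives. The log2 fold change ran from -0.66 to -0.31 for Mt1, -0.78 to -0.28 for Mt2, -0.31 to -0.17 for Mt3, -0.35 to -0.25 for Mtf1 and -0.18 to -0.11 for Slc30a1. Of these 90 values 1 passed its threshold, Mtf1 in DESeq2 (-0.31, adjusted p = 0.0408). Against 9 genes past the threshold in all, there were 136 without a count filter, 280 with DESeq2, 48 with sample weights, 16 without robust estimation, 40 without RBC 2 and saline 4, and 1 to 283 with 1 library left out (17 lacking RBC 1, 34 lacking RBC 2, 283 lacking RBC 3, 5 lacking saline 4 and 1 lacking any other saline library). Nothing in the labels says that the replicate numbers pair the libraries. Correlations of same-numbered deviations were -0.01, -0.17 and -0.17, within the -0.21 to 0.26 of other pairs, and are too few to decide it. With the replicate block, in which saline 4 has no partner, 2 genes passed, with Mt1 at -0.32 and Mt2 at -0.29. The difference in the log2 ratio of Mt1 to Mt2 changed sign without RBC 2 (-0.01), without saline 4 (-0.03) and without both (-0.10), and ran from -0.03 to 0.13 with 1 library left out. The list medians ran from 0.54 (without RBC 2) to 1.22 for IL-6 and STAT3, 0.41 to 0.61 for heme and Nrf2, 0.04 (without saline 1) to 0.13 for MTF-1 and 0.02 (without RBC 2) to 0.09 for SLC39. They changed sign with the setting for SLC30 (-0.06 to 0.03), copper (-0.03 to 0.07) and glucocorticoids (-0.08 to 0.02). The causes were not tested. The 191 counts of Mt2 in RBC 3 were the fewest for any of the 5 genes.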
